A study of Homo sapiens with 9 samples.

Results

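The genes described here are 34 genes of the response of cells to low oxygen, its factors and sensors among them, leaving out the enzymes of glycolysis. They were listed by gene symbol, and each matched exactly 1 of the 58735 genes in the deposited table. The cells were GBM43, a patient-derived glioblastoma line, grown in DMEM with fetal bovine serum and seeded into 3-dimensional devices filled with a hyaluronic acid hydrogel. There were 9 RNA libraries, 3 in each of 3 groups. The MK801 group came from devices given 50 µM MK801, which blocks NMDA-type glutamate receptors, and each of its libraries holds core and invasive cells together because few cells had invaded. The invasive group holds the cells that had left the core of control devices and entered the gel. The core group holds the cells that had stayed behind in control devices and were cut away with a scalpel. Control devices are described both as given culture medium and as given an equal volume of DMSO. Since nothing in the labels ties replicates to separate cultures, a p-value here covers no more than the scatter among libraries, part of which can be technical.

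In normal oxygen, the prolyl hydroxylases EGLN1 and EGLN3 mark the alpha subunits of the hypoxia-inducible factors (HIF1A and EPAS1) for destruction, and HIF1A is controlled mainly at the level of its protein. When oxygen falls the alpha subunits persist, pair with ARNT and bind short DNA elements whose core reads ACGTG or GCGTG. Their targets raise blood vessel growth, acid handling, glycogen storage and the removal of mitochondria, and several of them mark the oxygen-poor zones of glioblastoma. The question put to these genes was whether core cells, which sit inside the cell mass, carry more of this response than cells that have moved out into the gel.

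The element core was looked for upstream of the start of each gene. The windows below are shown because they come from the members whose invasive and core levels differ with the smallest p and that have such a match. ARRDC3 had none in its 2 listed promoters, and BNIP3L was not shown. Each window holds 57 bases from the 250 bases before a RefSeq transcript start (GRCh38.p14), 5′ to 3′ on the gene's strand. Capitals mark every ACGTG and GCGTG, read on either strand. In the AK4, PPP1R3C and BNIP3 windows a palindrome holds overlapping ACGTG matches on both strands.
MXI1, chr10:110210092-110210148, plus strand: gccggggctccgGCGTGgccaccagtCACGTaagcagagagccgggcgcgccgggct
AK4, chr1:65147434-65147490, plus strand: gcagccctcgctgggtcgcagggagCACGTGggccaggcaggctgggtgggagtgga
KDM3A, chr2:86441314-86441370, plus strand: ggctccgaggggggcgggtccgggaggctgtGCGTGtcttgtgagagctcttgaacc
PPP1R3C, chr10:91633085-91633141, minus strand: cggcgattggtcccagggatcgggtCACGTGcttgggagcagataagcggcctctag
BNIP3, chr10:131982026-131982082, minus strand: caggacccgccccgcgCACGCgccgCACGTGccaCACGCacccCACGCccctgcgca
ERO1A, chr14:52695642-52695698, minus strand: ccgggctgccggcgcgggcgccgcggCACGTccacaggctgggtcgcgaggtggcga

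RefSeq promoters were matched for 25 of the 34 members, 35 promoters in all. ACGTG on either strand was present in 15 of these 35 promoters (42.9%), against 18.5% of 35116 promoters of the same length. GCGTG was present in 20 of them (57.1%), against 32.2% of all. The members were picked as known hypoxia genes, so these shares describe the choice as well as the genes. A match is a run of letters and not a measured binding site.

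The libraries differed in ways that touch every comparison. They held 15584610 to 54409666 fragments assigned to genes. At an equal depth of 15584610 fragments, 15161, 19031 and 21517 genes were detected in MK801 replicates 1, 2 and 3, 15975 to 19140 in invasive libraries and 20322 to 21414 in core libraries. The share of G and C bases in the transcripts (GC content), averaged over fragments, was 54.2%, 53.1% and 50.5% in MK801 replicates 1, 2 and 3, 52.7 to 54.4% in invasive libraries and 49.8 to 51.1% in core libraries. Of 8 markers of glioma cells, VIM, CD44, SOX2 and EGFR reached 1 FPKM in every library, while NES and GFAP stayed at or under 0.510 FPKM and 0.234 FPKM and OLIG2 and CHI3L1 were listed at 0. The summed level of 8 fibroblast and pericyte markers, mostly COL1A1, was 45.3 to 131 FPKM in MK801, 227 to 416 FPKM in invasive and 42.5 to 80.7 FPKM in core libraries. PDGFRB, a pericyte receptor, was at 14.2 to 32.6 FPKM in MK801, 34.1 to 64.8 FPKM in invasive and 9.26 to 14.9 FPKM in core libraries. PDGFRA and RGS5, of the same list, went the other way. PDGFRA was at 2.645 to 3.39 FPKM in invasive and 3.20 to 4.83 FPKM in core libraries. RGS5, not tested, stayed at or under 0.589 FPKM and was lower in every invasive than in every core library. LUM, a fibroblast proteoglycan, was at 0.194 to 0.675 FPKM in MK801, 1.199 to 1.71 FPKM in invasive and 0.542 to 0.944 FPKM in core libraries, and DCN stayed at or under 0.828 FPKM in all. Of the 6 tested markers of this list, 5 were higher in invasive than in core libraries (median log2 difference 1.19), and limma on 9 libraries called 0. With each library's trend over gene GC content removed, 6 were higher (median 1.28) and 2 were called (33.3%, against 0.177% of all genes tested). In the 6 control libraries alone, 4 were called higher (66.7%, against 52.2% of all genes in either direction). With the GC trend removed there, 5 were called (83.3%, against 16.7%). MK801 libraries were lower than invasive ones for 6 of 6 (median -0.85, 0 called), and 3 of 6 were higher than in core libraries. With the GC trend removed, 2 were called lower in MK801 than in invasive libraries (33.3%, against 0.625% of all genes). Of 5 endothelial markers 2 reached 1 FPKM in any library, of 6 immune markers 1 and of 4 neuron markers 1. The part of these markers in the results was not tested.

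Of the 34 members, 33 passed the filter of 1 FPKM (fragments scaled to gene length and to the library's total) in at least 3 libraries. RORA, a nuclear receptor, passed through the 3 core libraries and 1 MK801 library. MIF, a cytokine, did not pass. It had 4 to 16 fragments per library, and 61.9% of its exon bases are shared with the antisense gene MIF-AS1, so its level cannot be read here. The mean core level of the 33 ran from 1.46 FPKM for RORA to 826 FPKM for NDRG1, and 27 of them were above 10 FPKM in the core. In bulk RNA, fewer cells using a gene and less RNA per cell cannot be told apart.

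**Figure D1:**
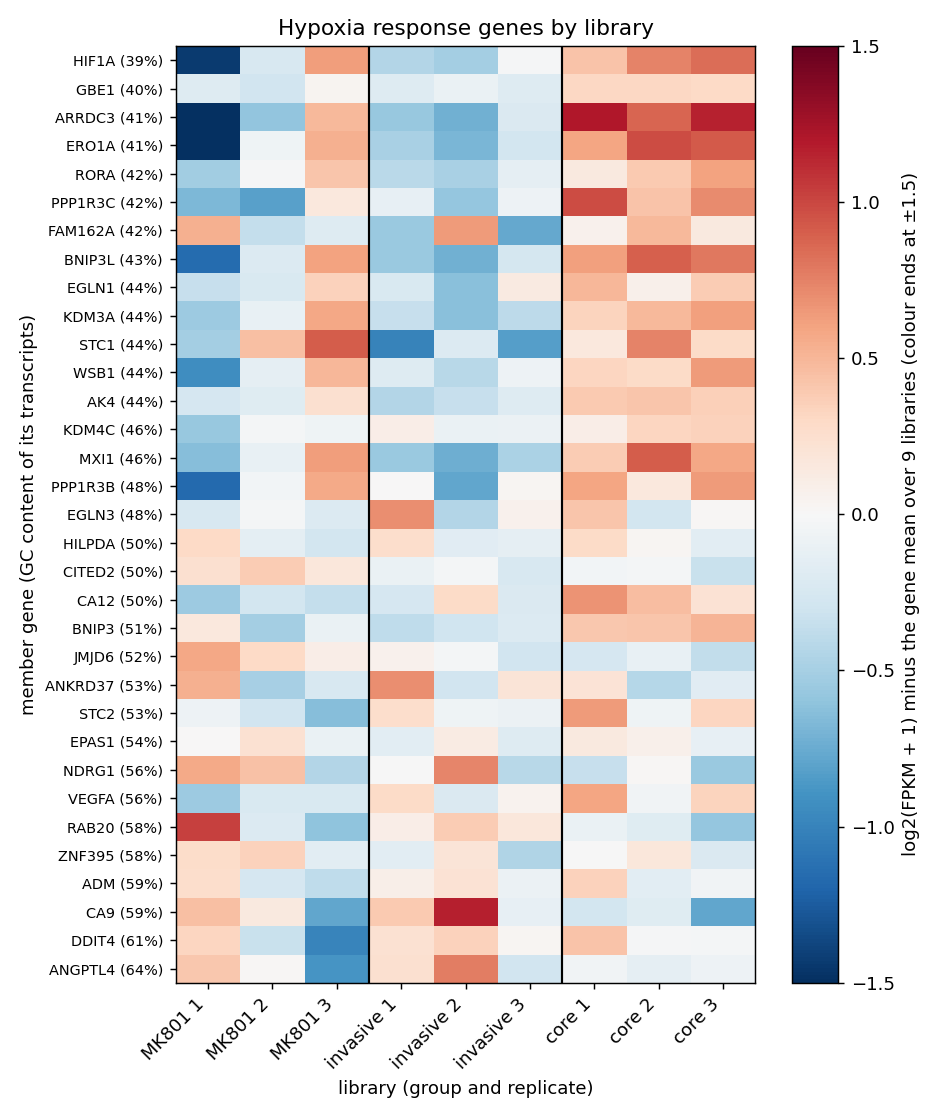
Each row is 1 of the 33 tested members, ordered by the GC content of its transcripts, and each column 1 library; colour gives log2(FPKM + 1) minus the gene's mean over the 9 libraries, red above and blue below. In the rows of low GC content the core columns and MK801 replicate 3 are mostly red and the invasive columns and MK801 replicate 1 mostly blue.

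The first comparison set invasive cells against core cells. Most hypoxia genes were at lower values in the invasive fraction, with the most negative differences for ARRDC3, ERO1A, BNIP3L and MXI1, while the best known surface marker, CA9, was at higher values there. Of 33 tested members, 23 had a negative and 10 a positive log2 difference, with a median of -0.46 on the log2(FPKM + 1) scale, against 50.9% negative and a median of -0.02 over all 11845 genes tested. None passed limma's test on all 9 libraries (0 of 33 at an adjusted p under 0.05, against 0% of all genes), so no member is called changed by that fit. At an unadjusted p under 0.05 there were 12 members (36.4%), against 37.7% of all genes. Limma-voom, run on the fragments, called 0 as well. With the GC trend of each library over genes removed (described below) the 9-library fit called 0 members, against 0.177% of all genes.

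The libraries of the 2 control fractions did not overlap for 15 members lower in the invasive fraction (45.5%, against 32.8% of all genes tested) and for 2 higher members (6.06%, against 32% of all). Across all 9 libraries, the highest value lay in a core library for 20 of the 33 members, in an MK801 library for 7 and in an invasive library for 6. The like count over all genes was not made, so whether this is particular to the members was not tested. A fit of the 6 control libraries alone called 17 members, 15 lower (25.9% of all genes) and 2 higher (26.3% of all genes). That is 51.5% of the members, against 52.2% of all genes tested, so the number of calls did not stand out from the background. With the trend of each library over gene GC content removed first, the same 6 libraries gave 10 called members, all lower (30.3%, against 16.7% of all genes in either direction, 7.4% lower and 9.26% higher). The members called in both of these fits were MXI1, BNIP3L, BNIP3, KDM3A, ERO1A and ARRDC3, 6 in all. The share of all genes called in both was not counted, so this number cannot be set against the background. Without MK801 replicate 1 or replicate 3, which enter this comparison only through the shared estimate of spread, limma called 12 members (36.4%, against 39.5% of all genes) and 14 members (42.4%, against 41.3%). A fit with the replicate number as a block called 10 members, all lower (30.3%, against 21.3% of all genes).

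MXI1 (ENSG00000119950, chromosome 10, 110207605 to 110287365, plus strand, GRCh38) encodes a repressor that competes with MYC for its partner MAX. It was at 10.8, 9.45 and 11.5 FPKM in invasive libraries, against 21.7, 31.6 and 24.98 FPKM in core libraries. The groups did not overlap, and the log2 difference was -1.21 (SE 0.31, limma adjusted p = 0.0958 over 9 libraries, and 0.0119 in the 6 control libraries with the GC trend removed). BNIP3L and BNIP3 encode related receptors that hand mitochondria to autophagy. BNIP3L was at 36.0, 31.8 and 44.1 FPKM in invasive libraries, against 82.1, 100.04 and 92.9 FPKM in core libraries (log2 difference -1.28, SE 0.38, limma adjusted p = 0.106). BNIP3 was at 27.9, 29.5 and 31.7 FPKM in invasive libraries, against 48.7, 49.3 and 52.4 FPKM in core libraries (log2 difference -0.74, SE 0.22, limma adjusted p = 0.106). Every invasive library was below every core library for both receptors, and BNIP3, whose GC content of 50.9% is near the middle, had a similar difference of -0.86 once the GC trend was removed.

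KDM3A, a histone demethylase that needs oxygen to work, was at 3.13, 2.40 and 3.02 FPKM in invasive libraries, against 5.64, 6.35 and 7.08 FPKM in core libraries (log2 difference -0.93, SE 0.28, limma adjusted p = 0.106). KDM4C, another histone demethylase, was at 2.88 ± 0.301 FPKM in invasive and 3.73 ± 0.437 FPKM in core libraries (SD, n = 3 each, here and below), where the highest invasive and the lowest core library differed by little and the difference was 0.01 with the GC trend removed. ERO1A, an oxidase that forms disulfide bonds in the endoplasmic reticulum, was at 14.4, 12.3 and 16.8 FPKM in invasive libraries, against 31.5, 41.3 and 39.8 FPKM in core libraries (log2 difference -1.31, SE 0.43, limma adjusted p = 0.106). ARRDC3 (ENSG00000113369, chromosome 5, 91368724 to 91383359, minus strand), an arrestin-like protein that directs receptors to degradation, had the most negative difference of the 33 members. It was at 8.85, 7.87 and 11.5 FPKM in invasive libraries, against 32.5, 25.7 and 31.5 FPKM in core libraries (log2 difference -1.58, SE 0.43, limma adjusted p = 0.101). For KDM3A, ERO1A and ARRDC3 alike, no invasive library reached the lowest core library.

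**Figure D2:**
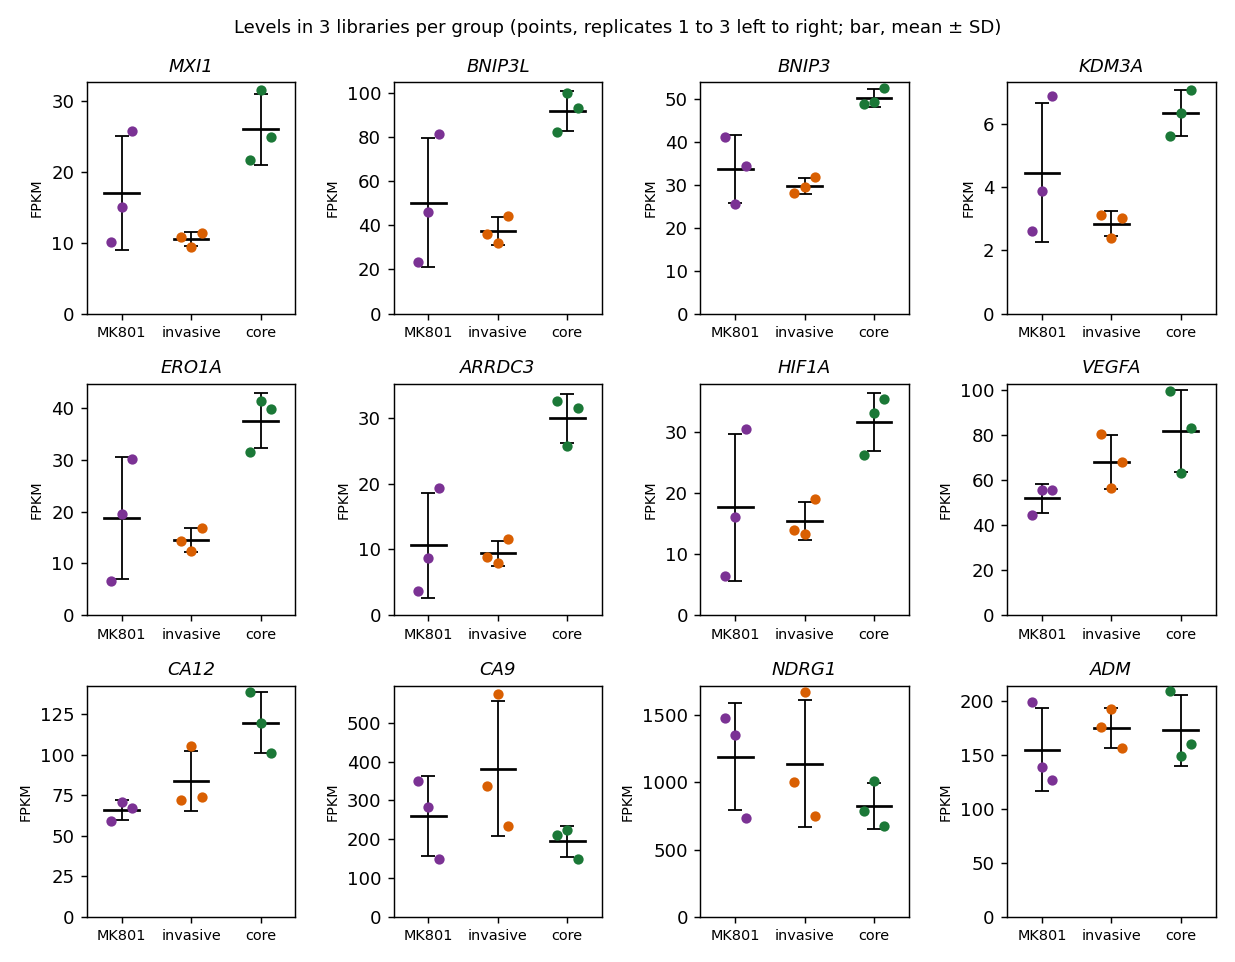
FPKM of 12 members in each library (points), with the mean and SD of the 3 libraries of a group (bars); each panel starts at 0. MXI1, BNIP3L, BNIP3, KDM3A, ERO1A and ARRDC3 are lower in every invasive than in every core library, the MK801 points spread widely for most of them, and CA9 is higher in every invasive than in every core library.

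Among the factors and sensors, HIF1A itself was at lower mRNA values outside the core. It was at 14.0, 13.3 and 19.0 FPKM in invasive libraries, against 26.4, 33.1 and 35.5 FPKM in core libraries (log2 difference -0.996, SE 0.43, limma adjusted p = 0.124). HIF1A has the lowest GC content of the members, 38.9%, and with the GC trend removed its difference was -0.26 (adjusted p = 0.164 in the 6 control libraries). EPAS1, which encodes HIF-2 alpha, was at 15.03, 18.5 and 14.6 FPKM in invasive libraries, against 18.7, 17.7 and 15.3 FPKM in core libraries (log2 difference -0.10, SE 0.20). EPAS1 values overlapped, and whether EPAS1 and HIF1A differ from each other in this was not tested. With the GC trend removed the EPAS1 difference was -0.42, called in the 6 control libraries (limma adjusted p = 0.0383). EGLN1, the main oxygen sensor, was at 6.65, 4.80 and 8.83 FPKM in invasive libraries, against 11.7, 8.50 and 10.7 FPKM in core libraries (log2 difference -0.56, SE 0.27, and -0.11 with the GC trend removed, where its call in the 6 control libraries was lost). EGLN3, a sensor that HIF itself induces strongly, was at 21.0, 8.98 and 13.1 FPKM in invasive libraries, against 17.2, 10.2 and 12.7 FPKM in core libraries (log2 difference 0.05, SE 0.30, limma adjusted p = 0.9). EGLN3 was spread over the same range in both fractions. CITED2, which competes with HIF for its coactivators, was at 107 ± 8.01 FPKM in invasive and 107 ± 12.1 FPKM in core libraries.

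The carbonic anhydrases, which set the acidity around the cell, had differences of opposite sign. CA9 was at 337, 574 and 234 FPKM in invasive libraries, against 210.2, 225 and 148 FPKM in core libraries (log2 difference 0.89, SE 0.41, limma adjusted p = 0.135). All 3 invasive values of CA9 lay above all 3 core values, the lowest invasive library by little. CA9 shares 38.5% of its exon bases with ARHGEF39 on the other strand, whose reads cannot be told apart without a strand setting, and with the GC trend removed the CA9 difference was 0.27 and the groups overlapped. CA12 was at 72.4, 106 and 74.0 FPKM in invasive libraries, against 139, 119.6 and 101 FPKM in core libraries (log2 difference -0.52, SE 0.24, limma adjusted p = 0.142). CA12 values overlapped by a single invasive library, and the difference was -0.61 with the GC trend removed.

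The secreted factors differed in sign. VEGFA, the main growth factor of blood vessels, was at 80.2, 56.2 and 68.1 FPKM in invasive libraries, against 99.2, 63.2 and 82.9 FPKM in core libraries (log2 difference -0.25, SE 0.25, limma adjusted p = 0.444). ADM, which encodes adrenomedullin, a vessel-widening peptide, was at 176, 193 and 156 FPKM in invasive libraries, against 209.9, 149 and 160.0 FPKM in core libraries (log2 difference 0.03, SE 0.27). The groups overlapped for both, whereas with the GC trend removed the differences were -0.75 for VEGFA and -0.59 for ADM and the groups no longer overlapped. STC1, a glycoprotein hormone, was at 97.1, 169.5 and 110.1 FPKM in invasive libraries, against 218, 329 and 239 FPKM in core libraries (log2 difference -1.07, SE 0.38, limma adjusted p = 0.108). The STC1 difference was -0.64 with the GC trend removed, the groups overlapped and the call in the 6 control libraries was lost. ANGPTL4, an inhibitor of lipoprotein lipase, was at 87.3 ± 31.7 FPKM in invasive and 66.3 ± 1.98 FPKM in core libraries, with overlap (log2 difference 0.33). The ANGPTL4 difference was -0.40 with the GC trend removed, and every invasive library was below every core library. STC2, the relative of STC1, was at 4.60 ± 0.787 FPKM in invasive and 5.83 ± 1.64 FPKM in core libraries, with differences of -0.27 before and -0.54 after the GC trend was removed.

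All 4 genes of glycogen and lipid storage had a negative difference. PPP1R3C, which targets a phosphatase to glycogen, was at 7.57, 5.22 and 7.84 FPKM in invasive libraries, against 17.3, 11.5 and 14.3 FPKM in core libraries (log2 difference -0.96, SE 0.29, limma adjusted p = 0.106, and -0.39 with the GC trend removed). PPP1R3B, of the same family, was at 8.55 ± 2.73 FPKM in invasive and 14.3 ± 2.65 FPKM in core libraries. The groups did not overlap for either, and both lost their call in the 6 control libraries when the GC trend was removed. GBE1, the glycogen branching enzyme, was at 38.1 ± 1.51 FPKM in invasive and 53.1 ± 0.420 FPKM in core libraries, and its sign turned when the GC trend was removed (-0.47 before, 0.22 after). HILPDA, a lipid droplet protein, was at 38.1 ± 6.83 FPKM in invasive and 39.9 ± 6.26 FPKM in core libraries, which overlapped. AK4, a mitochondrial adenylate kinase, was at 8.18, 8.77 and 9.94 FPKM in invasive libraries, against 15.4, 15.6 and 14.9 FPKM in core libraries (log2 difference -0.71, SE 0.20, limma adjusted p = 0.106). Its 3 core values lay within a narrow band (SD 0.335 FPKM) above every invasive value, and the difference was -0.29 with the GC trend removed, where its call in the 6 control libraries was lost. FAM162A, a mitochondrial protein that HIF1A induces, was at 35.3 ± 20.7 FPKM in invasive and 44.7 ± 7.43 FPKM in core libraries, with invasive replicate 2 above every core library (log2 difference -0.46, and 0.10 with the GC trend removed).

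The remaining members range from the most to the least abundant of those tested in the core. NDRG1, a stress-induced growth suppressor, was at 998, 1667 and 751 FPKM in invasive libraries, against 788, 1012 and 678 FPKM in core libraries (log2 difference 0.40, SE 0.39, limma adjusted p = 0.431, and -0.062 with the GC trend removed). Its highest library was invasive replicate 2 and its groups overlapped. DDIT4, an inhibitor of the growth kinase complex mTORC1, was at 345 ± 37.2 FPKM in invasive and 329 ± 61.8 FPKM in core libraries, and 41.2% of its exon bases lie under an antisense gene. The DDIT4 difference was 0.07, with overlap, and -0.61 with the GC trend removed, without overlap. ANKRD37, which HIF1A induces directly, was at 7.32 ± 2.82 FPKM in invasive and 5.48 ± 1.44 FPKM in core libraries and shares 35.2% of its exon bases with UFSP2 on the other strand. ZNF395, a transcription factor that shares 34.9% of its exon bases with FBXO16, was at 37.2 ± 8.50 FPKM in invasive and 40.0 ± 5.497 FPKM in core libraries, with differences of -0.12 before and -0.73 after the GC trend was removed. WSB1, part of a ubiquitin ligase, was at 6.33 ± 0.864 FPKM in invasive and 10.5 ± 1.61 FPKM in core libraries, and RORA at 0.484 ± 0.193 FPKM in invasive and 1.46 ± 0.391 FPKM in core libraries, both without overlap. Removing the GC trend gave differences of -0.21 for WSB1, against -0.65 before, and -0.13 for RORA, against -0.72 before, and both lost their call in the 6 control libraries, RORA with groups that overlapped. RAB20, a trafficking GTPase, was the other member higher in every invasive library, at 7.401 ± 0.868 FPKM in invasive and 4.97 ± 1.00 FPKM in core libraries, and its difference was -0.08 with the GC trend removed.

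The direction of a member went with the GC content of its transcripts, as it did for genes at large. The tested members had a median GC content of 48.3%, and all tested genes one of 49.2%. Among members below 49.2% GC, 16 of 17 had a negative invasive minus core difference, and so did 83.8% of 5921 genes below it. Among members at or above it, 7 of 16 were negative, against 18.0% of 5920 genes. With the GC trend removed, 27 of the 33 members were negative (median -0.39), against 5929 of 11845 genes tested (median -0.0006). Of the members, 13 of 17 were negative in the lower and 14 of 16 in the upper GC range. In those corrected values 18 members were lower without overlap (54.5%, against 20.2% of all genes) and 0 higher (against 21.9%). The correction takes away any true difference that runs with GC content together with any technical one, and it leaned on a smooth curve (loess) fitted to each library.

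**Figure D3:**
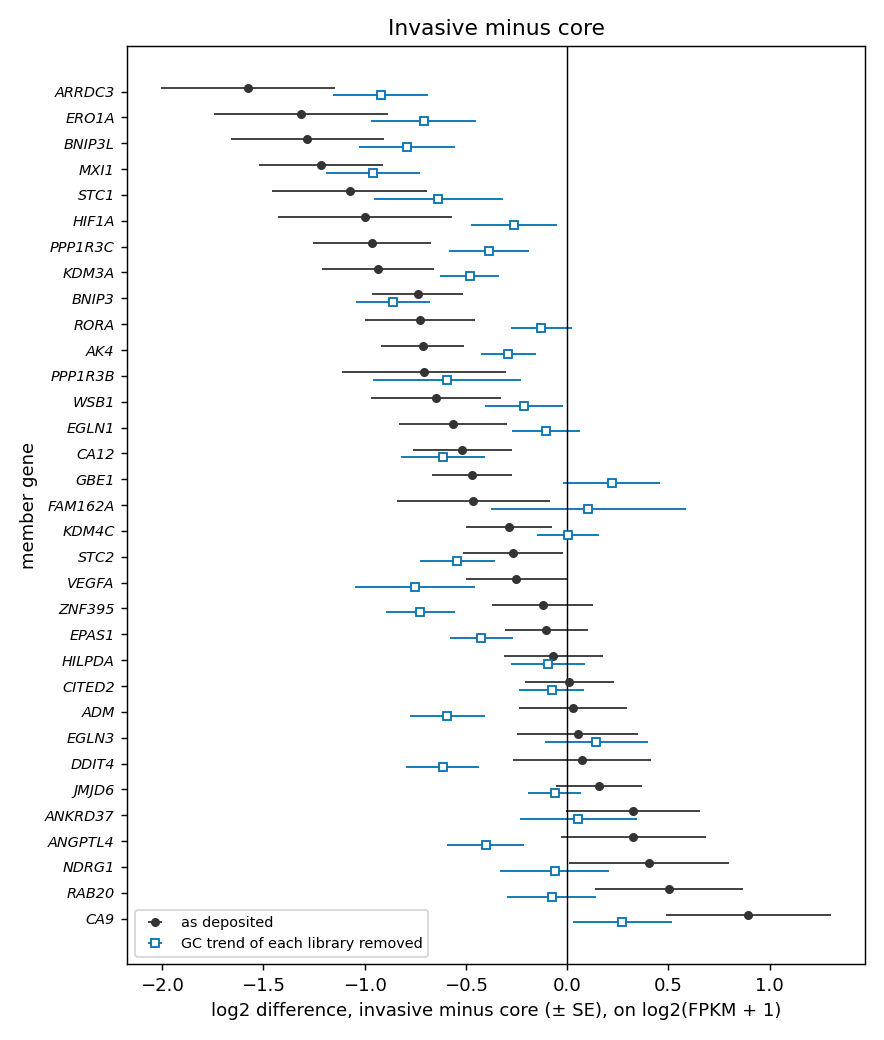
Log2 difference, invasive minus core, of each tested member with its SE from limma on 9 libraries, as deposited (filled circles) and with each library's GC trend removed (open squares). MXI1, BNIP3L, BNIP3, ERO1A and ARRDC3 stay well to the left of 0 in both, HIF1A moves towards 0, and VEGFA, ADM and DDIT4 move to the left.

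The direction differed among the other genes of the pathway. Of 21 glycolytic HIF targets, 17 had a positive invasive minus core difference (median 0.65), and 18 with the GC trend removed (median 0.37). Of 10 tested genes for oxygen sensing and the HIF complex, 6 were positive (median 0.10), of 10 matrix and adhesion targets 6 (median 0.36), and of 19 tested other HIF targets 10 (median 0.06). Limma on 9 libraries called 0 genes of these lists in either direction, as it did over all genes. In the 6 control libraries alone it called 8 glycolytic targets higher and 1 lower, 42.9% of that list against 52.2% of all genes. Once the GC trend was removed from those 6 libraries it called 0 of them, against 16.7% of all genes. ATF4 targets were counted because DDIT4, STC2 and VEGFA also answer to ATF4, a factor of amino acid and endoplasmic reticulum stress. Of 12 tested, 10 were positive (median 0.53), and 6 with the GC trend removed (median -0.02).

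The second comparison set MK801 devices against control cores. Each MK801 library pools core and invasive cells, so drug and cell fraction differ together here and cannot be told apart. The hypoxia genes again lay at lower values, with carbonic anhydrase CA12, VEGFA and the glycogen gene PPP1R3C lower in all 3 MK801 libraries, and JMJD6 and CITED2 higher in all 3. Of 33 members, 25 had a negative and 8 a positive MK801 minus core difference (median -0.45), against 49.7% negative and a median of 0.00 over all genes. Limma called 0 of 33, against 0% of all genes, with 12 members (36.4%) at an unadjusted p under 0.05, against 21.2% of all genes, and voom called 0. The groups did not overlap for 11 lower members (33.3%, against 8.82% of all genes) and 2 higher ones (6.06%, against 9.89%). This comparison and the first share the core libraries, so their likeness is not independent evidence.

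CA12 (ENSG00000074410, chromosome 15, 63321378 to 63382161, minus strand) was at 59.2, 71.1 and 67.5 FPKM in MK801 libraries, against 139, 119.6 and 101 FPKM in core libraries (log2 difference -0.84, SE 0.24, limma adjusted p = 0.235). VEGFA was at 44.5, 55.5 and 55.7 FPKM in MK801 libraries, against 99.2, 63.2 and 82.9 FPKM in core libraries (log2 difference -0.63, SE 0.25, limma adjusted p = 0.235). PPP1R3C was at 4.84, 4.29 and 9.43 FPKM in MK801 libraries, against 17.3, 11.5 and 14.3 FPKM in core libraries (log2 difference -1.15, SE 0.29, limma adjusted p = 0.235). These 3 genes were lower in each MK801 library than in any core library. With the GC trend removed, the differences were -0.96 for CA12, -1.03 for VEGFA and -0.64 for PPP1R3C.

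Several members were lowest in MK801 replicate 1 and highest in replicate 3. HIF1A was at 6.50, 16.2 and 30.5 FPKM in MK801 libraries, against 26.4, 33.1 and 35.5 FPKM in core libraries (log2 difference -1.02, SE 0.43). ARRDC3 was at 3.75, 8.66 and 19.4 FPKM in MK801 libraries, against 32.5, 25.7 and 31.5 FPKM in core libraries (log2 difference -1.65, SE 0.43). ERO1A was at 6.59, 19.5 and 30.2 FPKM in MK801 libraries, against 31.5, 41.3 and 39.8 FPKM in core libraries (log2 difference -1.18, SE 0.43). MK801 replicate 3 stood within the core values for HIF1A, just under them for ERO1A and further under them for ARRDC3. Removing the GC trend gave differences of -0.37 for HIF1A, -0.65 for ERO1A and -1.07 for ARRDC3. BNIP3L was at 23.4, 46.0 and 81.2 FPKM in MK801 libraries, against 82.1, 100.04 and 92.9 FPKM in core libraries (log2 difference -1.02, SE 0.38). MXI1 was at 10.2, 15.1 and 25.8 FPKM in MK801 libraries, against 21.7, 31.6 and 24.98 FPKM in core libraries (log2 difference -0.66, SE 0.31), and BNIP3 at 41.1, 25.5 and 34.2 FPKM, against 48.7, 49.3 and 52.4 FPKM (log2 difference -0.59, SE 0.22). BNIP3 did not follow the order of the other receptor, since its highest MK801 library was replicate 1.

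The MK801 replicates differed in where they lay between the control fractions. Of the 15 members lower in every invasive than in every core library, MK801 replicate 1 was within or below the invasive range for 14, replicate 2 for 8 and replicate 3 for 1. MK801 replicate 3 was within or above the core range for 7 of the 15, replicate 2 for 1 and replicate 1 for 0. The 15 were picked from these same control libraries, and the like counts over all genes were not made. Whether these positions are particular to the members was therefore not tested. The number of genes detected and the GC content of the libraries, given above, ran in the same order. The part of these library properties was not tested. Without MK801 replicate 3, limma called 15 members, 14 lower and 1 higher (45.5%, against 50.2% of all genes). The same fit with all 9 libraries called 0 members. Removing the GC trend left 26 of 33 members negative (median -0.26), against 5890 of 11845 genes tested (median 0.0024). In that setting 13 members were lower without overlap (39.4%, against 8.26% of all genes), 2 higher (6.06%, against 8.3%) and 0 called.

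**Figure D4:**
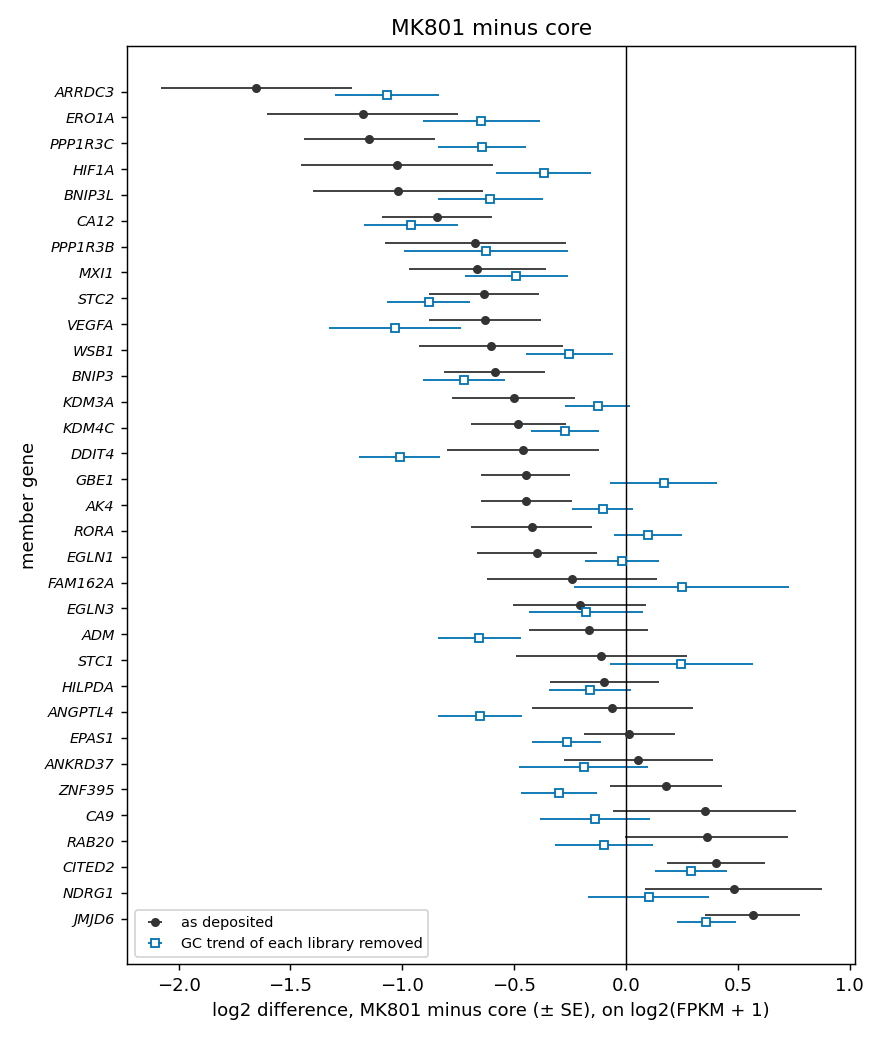
Log2 difference, MK801 minus core, of each tested member with its SE from limma on 9 libraries, as deposited (filled circles) and with each library's GC trend removed (open squares). CA12, PPP1R3C, ARRDC3, ERO1A and BNIP3L lie left of 0 in both, and JMJD6 and CITED2 lie right of 0 in both.

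In the values as deposited, some markers of hypoxia gave no separation between MK801 devices and cores. CA9 was at 349, 282 and 148 FPKM in MK801 libraries, against 210.2, 225 and 148 FPKM in core libraries (log2 difference 0.35, SE 0.41). NDRG1 was at 1476, 1354 and 734 FPKM in MK801 libraries, against 788, 1012 and 678 FPKM in core libraries (log2 difference 0.48, SE 0.39). ADM was at 199, 139 and 127 FPKM in MK801 libraries, against 209.9, 149 and 160.0 FPKM in core libraries (log2 difference -0.17, SE 0.27). The groups overlapped for all 3, as they did for the sensors. EGLN3 was at 10.5, 12.3 and 10.8 FPKM in MK801 libraries, against 17.2, 10.2 and 12.7 FPKM in core libraries (log2 difference -0.21, SE 0.30). EGLN1 was at 6.06, 6.64 and 10.4 FPKM in MK801 libraries, against 11.7, 8.50 and 10.7 FPKM in core libraries (log2 difference -0.40, SE 0.27), and EPAS1 at 17.0, 19.9 and 15.6 FPKM, against 18.7, 17.7 and 15.3 FPKM (log2 difference 0.02, SE 0.20). With the GC trend removed, ADM and EPAS1 were lower in every MK801 than in every core library. CA9, NDRG1, EGLN1 and EGLN3 still overlapped.

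The members higher in MK801 devices were few. CITED2 was at 138, 153 and 131 FPKM in MK801 libraries, against 113, 114 and 92.7 FPKM in core libraries (log2 difference 0.40, SE 0.22, limma adjusted p = 0.258). JMJD6, an oxygen-dependent lysine hydroxylase, was at 22.5, 18.3 and 15.8 FPKM in MK801 libraries, against 12.2, 13.6 and 11.2 FPKM in core libraries (log2 difference 0.57, SE 0.21, limma adjusted p = 0.235). Both were above every control library of either fraction, and both kept a positive difference with the GC trend removed (0.29 for CITED2 and 0.36 for JMJD6). DDIT4 and STC2 were at lower means, 253 ± 113 FPKM in MK801 and 329 ± 61.8 FPKM in core libraries for DDIT4, and 3.37 ± 0.834 FPKM in MK801 and 5.83 ± 1.64 FPKM in core libraries for STC2. As deposited, only STC2 of these last 2 had groups that did not overlap. With the GC trend removed, DDIT4 too was lower in every MK801 than in every core library (7.11 to 7.39 against 8.02 to 8.41, log2 scale).

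The third comparison set MK801 devices against the invasive fraction, where drug and cell fraction again differ together. Here the hypoxia genes showed no common direction. Of 33 members, 18 had a positive and 15 a negative MK801 minus invasive difference (median 0.03, against 0.00 over all genes). Limma and voom called 0 members, limma 0% of all genes, and 1 member (3.03%) was at an unadjusted p under 0.05, against 8.26% of all genes. The groups did not overlap for 2 higher and 2 lower members (6.06% each, against 5.22% and 5.63% of all genes), and with the GC trend removed for 4 higher (12.1%, against 7.97%) and 2 lower members (6.06%, against 9.95%), with 0 called, against 0.625% of all genes. As deposited, the higher ones were CITED2 and JMJD6 and the lower ones CA12 and VEGFA, which also did not overlap between MK801 and core libraries. Both comparisons use the same MK801 libraries. The lower ones were apart by little. The highest MK801 and the lowest invasive library were at 71.1 and 72.4 FPKM for CA12 and at 55.7 and 56.2 FPKM for VEGFA. With the GC trend removed, CA12 and VEGFA overlapped, and the lower ones were DDIT4 and STC2.

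The member with the smallest p was STC1. It was at 137, 268 and 369.6 FPKM in MK801 libraries, against 97.1, 169.5 and 110.1 FPKM in invasive libraries (log2 difference 0.96, SE 0.38, limma adjusted p = 0.53). The STC1 groups overlapped through MK801 replicate 1. The next were JMJD6, with 15.4, 14.5 and 11.9 FPKM in the invasive libraries it is set against (log2 difference 0.41, SE 0.21), CITED2, against 109, 114 and 98.5 FPKM (0.39, SE 0.22), and MXI1, whose difference was 0.55 (SE 0.31). DDIT4 was at 374, 237 and 149.6 FPKM in MK801 libraries, against 349, 379 and 305 FPKM in invasive libraries (log2 difference -0.53, SE 0.34, limma adjusted p = 0.81). For the factors, sensors and reporter genes given in full above, other than MXI1, this difference ran from -0.54 for CA9 to 0.26 for BNIP3L. As deposited, the groups overlapped for each of these except CA12 and VEGFA.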

How the data were processed

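Per the labels' protocols, RNA was extracted with Trizol from cells freed from the gel with hyaluronidase, and mRNA was pulled down with poly-T beads before library construction. The authors deposited FPKM values per gene. Per the submitters' processing notes HISAT2 2.0.5, featureCounts 1.5.0-p3 and GRCh38 were used, and a strand setting is not given in the sources used here. Gene length is deposited beside the values, and FPKM times length gave whole fragments for 100% of values above 0 (tolerance 0.01). The total the authors scaled by was 0.769 to 1.23 times the summed gene fragments. A linear model with a mean for each group was fitted to log2(FPKM + 1) of all 9 libraries with limma 3.58.1 (R 4.3.3) (empirical Bayes with a trend and 6 residual degrees of freedom), for 11845 genes with at least 1 FPKM in 3 libraries, with Benjamini-Hochberg adjustment over these genes. This fit was tested on simulated data with equal, independent noise in every gene and library. The real libraries differ from that setting in their uneven spread and shared GC trend. A fold change on this scale understates changes of weakly expressed genes. With 3 libraries a side, the smallest p of an exact permutation test is 0.1, and such tests were left out. GC content came from GENCODE release 29 transcripts, and its trend was a loess curve (span 0.3) per library. The members, lists and tests were chosen with earlier results of these data known. The genes given in full are 12 factors, sensors and reporter genes and, per comparison, the 5 members with the smallest p; other members are given by mean and SD. Alternatives covered pseudocount, filter, scaling, GC trend, the compared groups alone, a replicate block, voom on fragments, library weights and leaving out each library.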

Additional observations from a re-analysis of the deposited data

How the results depend on the processing

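The main fit, limma on all 9 libraries without weights or a block, called 0 members in each comparison. Invasive minus core gave 17 called members with the 6 control libraries alone, 10 with the GC trend also removed, 20 with library quality weights, and 0 to 14 when single libraries were left out. MK801 minus core gave 27 with library weights and 0 to 15 when single libraries were left out, and MK801 minus invasive gave 21 with library weights; the weights called 7849, 8950 and 5649 genes in all in these comparisons, and their estimation gave a convergence warning. Deviations of same-numbered invasive and core libraries from their group means had r = -0.00701, 0.243 and 0.445 over tested genes. Those with different numbers had r of -0.400 to 0.208. Same-numbered MK801 and core libraries, from different devices, had r = 0.413, 0.0438 and 0.585. The deposited library names share numbers between the fractions, but the labels state no pairing. The main fit does not pair the libraries, and whether they are paired by device was not tested. With a replicate block, invasive minus core gave 10 called members (2525 genes), 18 (7134 genes) in the control libraries alone, 0 (0 genes) in 9 libraries with the GC trend removed, and 14 (2200 genes) in the control libraries with the GC trend removed, the last setting chosen after seeing the data. MK801 minus core gave 1 (113 genes) in its 6 libraries alone. The invasive minus core median of -0.46 was -0.37 with no filter, -0.60 with quantile normalization, -0.39 with the GC trend removed (with or without the block, in 9 or 6 libraries), -0.77 with voom (all genes -0.36), and -0.48 to -0.26 with single libraries left out. The MK801 minus core median of -0.45 was -0.57, -0.26 and -0.71 (all genes -0.25) under quantile, GC and voom settings, and -0.54 to -0.31 with single libraries left out; MK801 minus invasive was 0.10, -0.032 and 0.17, -0.033 with weights, and -0.066 to 0.057. Without the 2 libraries with the fewest genes detected, chosen after seeing the data, the medians were -0.37, -0.31 and 0.20. Removing the GC trend left the sign of 23 of 33 members as it was in invasive minus core, 24 in MK801 minus core and 30 in MK801 minus invasive. Over all settings, these signs turned among the genes given in full for each comparison. Invasive minus core: ADM was -0.46 (quantile), -0.59 (GC trend removed in each fit), -0.29 (voom), -0.0031 (weights), -0.044 (without those 2 libraries) and -0.071 to 0.18 with single libraries left out. EGLN3 was -0.10 (quantile), -0.32 (voom) and -0.24 to 0.32, and NDRG1 -0.075 (quantile) and -0.062 (GC). MK801 minus core: EPAS1 was -0.010 (median-of-ratios), -0.22 (quantile), -0.26 (GC), -0.28 (voom) and -0.076 to 0.089, CA9 -0.12 (quantile) and -0.14 (GC), and NDRG1 -0.0097 (quantile). MK801 minus invasive: HIF1A was 0.10 (quantile), 0.17 (voom), 0.13 (weights), 0.43 (without those 2 libraries) and -0.52 to 0.52, EGLN1 -0.033 (weights) and -0.046 to 0.35, and BNIP3 -0.16 (weights), -0.0085 (without those 2 libraries) and -0.0050 to 0.33. With single libraries left out, BNIP3L was -0.17 to 0.71, EGLN3 -0.53 to 0.036 and NDRG1 -0.18 to 0.39. The cause of these shifts was not tested. Values of tested members rest on 73 (RORA) to 468743 (NDRG1) fragments, and what depth limits was not tested.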
